A study of Mus musculus with 19 samples.

Results

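Arginase 1 (Arg1), chitinase-like 3 (Chil3), the mannose receptor (Mrc1), Cd163, Lyve1, Folr2, Ms4a6d, Ms4a7, Cd14 and Fcgr3 are 10 genes grouped here under resident and alternatively activated macrophages. Cd14 and Fcgr3 are not particular to such macrophages. All 10 genes were followed in left ventricular myocardium through a cardiomyopathy that passes. Every probe of the bead array whose platform symbol was one of these names or an older alias of it was taken, which gave 15 of the 25697 probes and 10 of the 16593 named genes. Chil3 had 3 probes, Cd163, Ms4a6d and Ms4a7 had 2 each, and the other genes had 1. All 15 probes lay above the filter on dim probes, a mean intensity of 162.92 over all arrays, so no member was lost to it. Arg1 averaged 154.107 in controls, 145.001 at day 2 and 137.768 at day 28, so it passed through its day 3 and day 10 arrays. A dimmer Chil3 probe also lay below that limit in controls (159.384) and at day 28 (150.549). The day 10 calls of both probes against controls held with no filter. The rule itself used names alone, but the members were chosen with earlier results of these data known.

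The mice were male MerCreMer mice on a C57Bl6/J background, 12 to 20 weeks old. MerCreMer is a Cre recombinase held inactive by mutated estrogen receptor domains and driven in cardiomyocytes by the promoter of a cardiac myosin heavy chain, and tamoxifen switches it on. The 5 control arrays are labelled non-failing and stand for the baseline, and the treated mice received 1 mg (40 mg/kg) intraperitoneally each day. The route is the one given in the protocol, while the labels of days 10 and 28 mention a normal diet after tamoxifen. Day 2 (4 arrays) followed 2 days of tamoxifen and day 3 (3 arrays) followed 3 days. Day 10 (3 arrays) followed 5 days of tamoxifen and 5 further days, and day 28 (4 arrays) followed 5 days of tamoxifen and 23 further days. The submitters place the peak of dysfunction at day 10 and recovery by 4 weeks. All groups, the controls included, carried the transgene. No vehicle group and no group given tamoxifen without Cre was used, so effects of tamoxifen, of Cre and of time cannot be told apart. The labels number the arrays but do not state that each came from a separate animal, so the p-values measure the spread between these arrays.

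As background, the healthy heart holds long-lived macrophages that take up debris and carry scavenger and endocytic receptors such as Cd163, Lyve1, Folr2 and Mrc1. After injury, monocytes from the blood enter the tissue and give rise to further macrophages. Interleukin 4 and interleukin 13 are known to switch cultured mouse macrophages to an alternatively activated state, in which Arg1, Chil3 and Mrc1 are classical marks, while Cd14 and Fcgr3 are found on monocytes, macrophages and neutrophils alike. Lyve1 is also a mark of lymphatic endothelium, and Chil3 is abundant in neutrophils.

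Values are log2 of the background-corrected intensity plus 50, and a difference of 1 on this scale is a doubling. Over all arrays the scale ran up to 15.82 with a median of 6.83. A probe near 6 thus lay near the bottom of the array and one near 7 close to its middle. Differences were tested with limma across all 19272 probes that passed the filter. A call means a Benjamini-Hochberg adjusted p under 0.05.

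Some arrays stood apart. Controls 4 and 5 both exceeded controls 1 to 3 in 10 of the 15 probes, as they did in 19.1% of all probes tested, and the summed corrected intensity of 11 pan-macrophage markers was 12171.6 and 14687.9 in them, against 4897.73 to 5978.59 in controls 1 to 3. The gap was 1.35 for Folr2 and Ms4a7, 1.27 for Cd14 and 0.90 for Mrc1. At day 3, replicate 2 was the highest array for Arg1, Chil3, Mrc1, Lyve1, Ms4a6d, Ms4a7, Cd14 and Fcgr3, and its summed neutrophil markers reached 12591.9 against 2052.32 and 4792.61 in the other day 3 arrays. Many of the calls that changed with the controls chosen, or without day 3 replicate 2, are given beside the values. As a check of the tissue label, the 9 ventricular cardiomyocyte markers measured summed to 207854 to 303501 on the 19 arrays, while 6 hepatocyte markers summed to at most 408.98.

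The genes did not move together. At day 10, 8 of the 10 genes rose against controls (12 of 15 probes), where 17.7% of all probes tested were called higher. Ms4a6d rose by 17.8-fold, Cd14 by 16.9-fold, Fcgr3 by 6.63-fold, Mrc1 by 4.60-fold and Ms4a7 by 4.44-fold. Arg1 (37.4-fold) and Chil3 (35.2-fold) rose over dim control levels, so the size and order of their folds depend on the background treatment, which moved them between 18.9 and 68.4 for Arg1 and between 19.6 and 55.2 for Chil3. Of the 4 scavenger and endocytic receptors, Mrc1 and Lyve1 rose, Lyve1 by 1.45-fold, and Cd163 and Folr2 did not pass the test. The Lyve1 call held in 21 of 28 alternatives, and its groups overlapped. The Folr2 difference was 0.91 against controls 1 to 3 alone and -0.44 against controls 4 and 5 alone, so this split is not firm. In whole tissue, more cells of a type and more RNA per cell cannot be told apart. The median difference of the 15 probes was 2.73, and that of all probes tested was -0.03. In 11 of the 15 probes every day 10 array lay above every control, as in 17.9% of all probes.

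**Figure D1:**
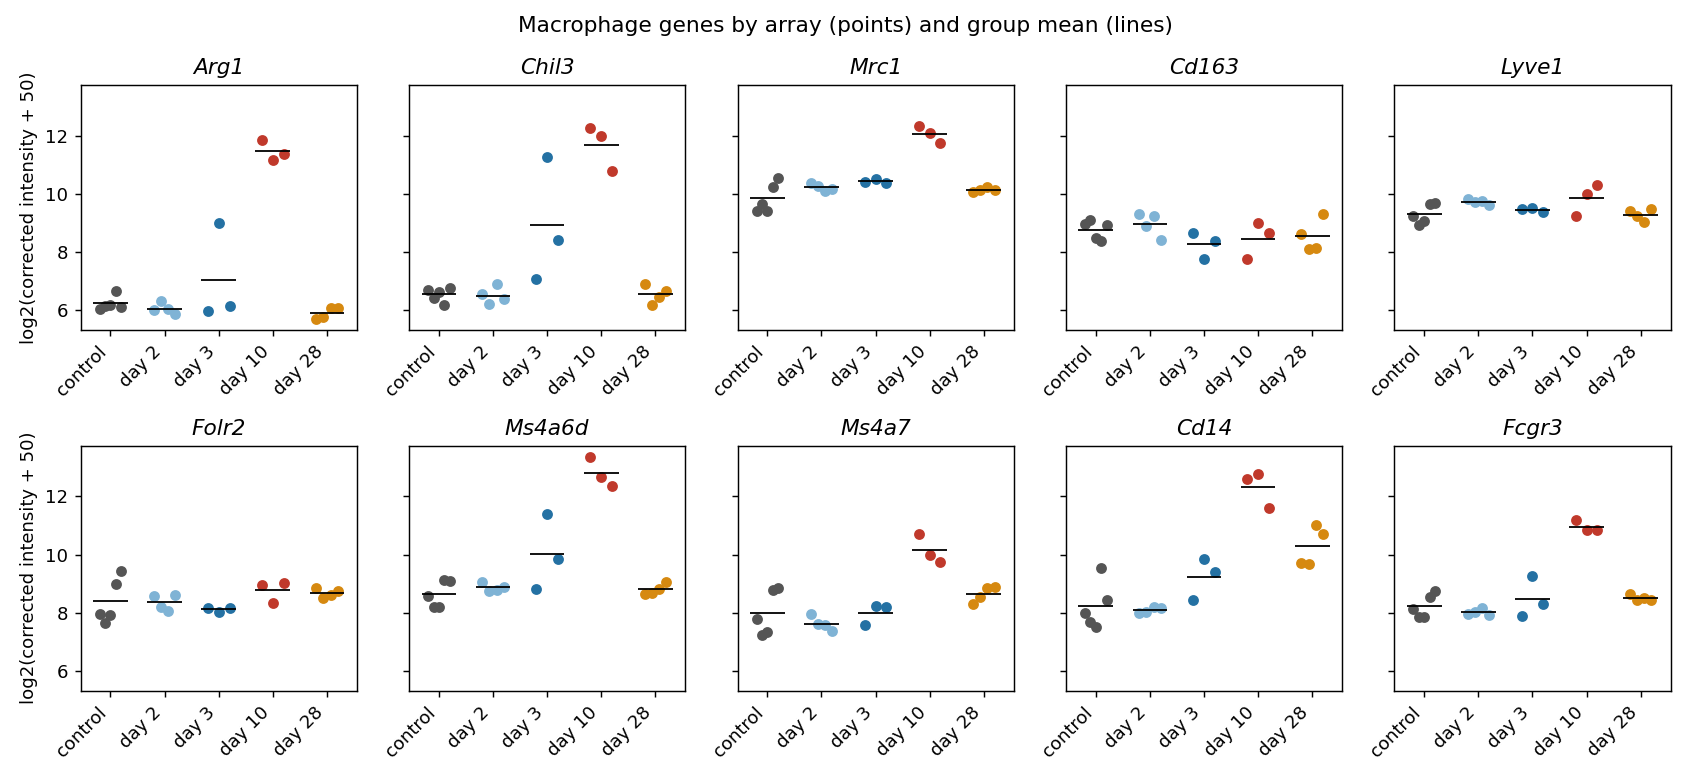
Each panel plots 1 gene, with its brightest probe where it has several, as log2(corrected intensity + 50) for each array (points) and as the group mean (lines) in controls and at days 2, 3, 10 and 28. The 3 day 10 arrays stand clear of the controls for Arg1, Chil3, Mrc1, Ms4a6d, Ms4a7, Cd14 and Fcgr3, and overlap them for Cd163, Lyve1 and Folr2, with 2 Lyve1 arrays above and 1 Cd163 array below every control, and at day 3 a single array is high for Arg1.

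Arg1, the enzyme that splits arginine into ornithine and urea, was 11.86, 11.15 and 11.37 in the day 10 arrays, against 6.05, 6.16, 6.18, 6.66 and 6.12 in controls. The control level lay at the 11.4th percentile of all probes, near the bottom of the array, and the day 10 level at the 95.5th. The difference was 5.23 ± 0.39 (SE), with an adjusted p of 4.39e-10 in limma. The fold was 18.9 with no background correction and 68.4 with an offset of 16, and the call held under all 28 alternatives. Arg1 was 6.02, 6.32, 6.03 and 5.87 at day 2 and 5.71, 5.78, 6.09 and 6.09 at day 28, within or just below the control range. At day 3 it was 5.99, 9.00 and 6.13, so that a single array carried the difference of 0.81 (adjusted p = 0.14), which turned to -0.18 without replicate 2.

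Chil3, a secreted chitinase-like lectin also called Ym1, was 12.27, 11.98 and 10.80 in the day 10 arrays, against 6.71, 6.43, 6.64, 6.19 and 6.78 in controls. Its difference was 5.14 ± 0.51 (SE; adjusted p = 2.25e-08). The fold was 19.6 with no background correction and 55.2 with an offset of 16. The other Chil3 probes gave 4.66 ± 0.51 (adjusted p = 8.45e-08) and 3.21 ± 0.37 (adjusted p = 1.87e-07), so all 3 probes moved the same way by unequal amounts. Chil3 also differed at day 3, at 7.07, 11.26 and 8.42, and every day 3 array lay above every control. The day 3 difference was 2.37 ± 0.51 (5.17-fold, adjusted p = 0.000849), and without replicate 2 it was 1.20 (2.30-fold), still called at an adjusted p of at most 0.0137 across the alternatives. At day 2 Chil3 was 6.55, 6.22, 6.89 and 6.38, and at day 28 it was 6.90, 6.19, 6.45 and 6.67, both overlapping the controls. Chil3 has a near-identical neighbour, Chil4, and the probes' signal may be shared with it, so the identity of this signal is uncertain between those genes. Chil4 is on the array under its own name but did not pass the filter, and shared signal was not tested.

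The sequences before the start sites of some members called at day 10, with Cd163, which was not called, are shown for description only. No motif was tested against the course of the members. They are the 250 bases upstream of the annotated start in RefSeq GRCm38.p6, 5′ to 3′ on the gene's strand, in lower case with any match to a searched motif in capitals. Such windows were at hand for 6 of the 10 genes (Chil3, Mrc1, Cd163, Folr2, Ms4a7 and Fcgr3). Arg1, Lyve1, Ms4a6d and Cd14 have no window here.
Chil3: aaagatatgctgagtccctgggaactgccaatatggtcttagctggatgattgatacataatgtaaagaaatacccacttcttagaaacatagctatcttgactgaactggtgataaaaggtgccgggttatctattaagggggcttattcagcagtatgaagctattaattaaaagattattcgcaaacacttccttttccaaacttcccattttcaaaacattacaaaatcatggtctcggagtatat
Mrc1: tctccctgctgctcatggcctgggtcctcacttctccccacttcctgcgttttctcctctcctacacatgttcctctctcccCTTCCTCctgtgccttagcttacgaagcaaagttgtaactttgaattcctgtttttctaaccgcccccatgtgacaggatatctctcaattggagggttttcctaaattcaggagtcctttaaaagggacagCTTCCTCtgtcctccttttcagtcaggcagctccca
Cd163: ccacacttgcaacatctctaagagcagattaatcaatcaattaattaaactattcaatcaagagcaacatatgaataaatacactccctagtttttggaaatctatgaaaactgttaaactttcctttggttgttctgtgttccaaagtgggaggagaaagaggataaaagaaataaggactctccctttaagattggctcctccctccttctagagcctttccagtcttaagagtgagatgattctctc
Ms4a7: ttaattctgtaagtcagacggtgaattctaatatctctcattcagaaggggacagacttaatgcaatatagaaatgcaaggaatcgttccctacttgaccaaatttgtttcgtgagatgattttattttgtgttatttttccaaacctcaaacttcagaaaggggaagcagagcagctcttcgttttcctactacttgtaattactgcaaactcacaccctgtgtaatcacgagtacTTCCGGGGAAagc
Fcgr3: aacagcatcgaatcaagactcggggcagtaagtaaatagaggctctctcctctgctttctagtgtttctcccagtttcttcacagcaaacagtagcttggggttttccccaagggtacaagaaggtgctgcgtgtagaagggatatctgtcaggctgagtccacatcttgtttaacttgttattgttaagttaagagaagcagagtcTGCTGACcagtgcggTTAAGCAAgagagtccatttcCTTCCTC
The Chil3 window lies at chr3:106167565-106167814 on the minus strand, the Mrc1 window at chr2:14229164-14229413 on the plus strand and the Cd163 window at chr6:124304401-124304650 on the plus strand. The Ms4a7 window lies at chr19:11336147-11336396 and the Fcgr3 window at chr1:171059404-171059653, both on the minus strand. These genes have 2 annotated start windows each, of which the first is shown. The motifs searched on both strands were TTC and GAA with any 4 bases between them (STAT6 type), GAGGAAG (PU.1 type), TTGCNNAA (C/EBP type), TGCTGAC (MAF type) and TGANTCA (AP-1 type). Over 32851 windows of the same length these occurred in 5.85%, 10.6%, 9.56%, 3.81% and 6.75%, in that order. Chil3 and Cd163 held none of the letters searched. Mrc1 held the PU.1-type letters on the opposite strand with first bases at -168 and -36 from the start, and Ms4a7 held a STAT6-type match at -13. Fcgr3 held a MAF-type match at -43, a C/EBP-type match at -28 and a PU.1-type match at -7, with no overlap between them. Of the windows not printed, 1 of the 2 Folr2 windows held an AP-1-type match at -74, and the second Ms4a7 window held one at -81. The second Fcgr3 window, which overlaps the printed one, held the same 3 matches at -52, -37 and -16. A match describes letters in this window only.

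Mrc1, the mannose receptor of endocytosis, was 12.33, 12.08 and 11.74 in the day 10 arrays, against 9.40, 9.64, 9.41, 10.23 and 10.54 in controls. It was already bright in controls, at the 87.7th percentile, and rose by 2.20 ± 0.20 (SE; adjusted p = 4.52e-09 in limma). The rise was 2.56 against controls 1 to 3 alone and 1.66 against controls 4 and 5 alone, called in both. At day 3 it was 10.41, 10.51 and 10.38, with little spread between replicates. That was 0.59 above the mean of the controls (adjusted p = 0.0255), but the groups overlapped and the call was lost in 8 of 28 alternatives, including when any single day 3 array was left out. Against controls 4 and 5 alone the day 3 difference was 0.05 (adjusted p = 0.88). At day 2 it was 10.38, 10.28, 10.11 and 10.16, which did not pass the test (difference 0.39, adjusted p = 0.233) but passed against controls 1 to 3 alone (0.75, adjusted p = 0.0016). At day 28 Mrc1 was 10.06, 10.11, 10.24 and 10.12, which did not pass with all controls (difference 0.29, adjusted p = 0.462). The day 28 difference passed against controls 1 to 3 alone (0.65, adjusted p = 0.00336) and was -0.25 against controls 4 and 5 alone, with no call.

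Cd163, the scavenger receptor for haemoglobin bound to haptoglobin, was 7.74, 8.98 and 8.64 in the day 10 arrays, against 8.98, 9.10, 8.48, 8.38 and 8.92 in controls. The groups overlapped, and the difference of -0.32 had a 95% interval from -0.90 to 0.26 (adjusted p = 0.429). It was 9.31, 8.89, 9.25 and 8.41 at day 2, 8.65, 7.77 and 8.37 at day 3, and 8.60, 8.12, 8.14 and 9.31 at day 28, with no call in any of the 7 comparisons. The second Cd163 probe was dim, at 6.59 ± 0.13 at day 10 and 6.42 ± 0.25 in controls (SD, n = 3 and n = 5), and was not called either.

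Lyve1, a hyaluronan receptor, was 9.24, 9.99 and 10.32 in the day 10 arrays, against 9.25, 8.93, 9.06, 9.65 and 9.68 in controls. The lowest day 10 array lay among the controls, and the difference of 0.53 ± 0.19 (SE) had an adjusted p of 0.0326. The call was lost in 7 of 28 alternatives. Against controls 4 and 5 alone the difference was 0.18 (adjusted p = 0.616), and with only the groups compared the adjusted p was 0.0878. Without day 10 replicate 2 the adjusted p was 0.132, without day 10 replicate 3 it was 0.295, and without control 1, 2 or 3 it was 0.0572, 0.0904 and 0.0783. At day 2 Lyve1 was tight at 9.82, 9.73, 9.76 and 9.61, a difference of 0.42 that did not pass the test (adjusted p = 0.187). The day 2 difference of Lyve1 passed against controls 1 to 3 alone (0.65, adjusted p = 0.0438) and was 0.06 against controls 4 and 5 alone. At day 3 it was 9.46, 9.52 and 9.37 and at day 28 it was 9.42, 9.22, 9.01 and 9.48, both within the control range. The 8 lymphatic endothelial markers measured summed to 4666 to 5382.8 at day 10, against 3002.01 to 4893.54 in controls, while their median difference was -0.26, with Pdpn called higher (2.46) and Prox1 (-1.39) and Reln (-0.64) called lower. Their part in the Lyve1 value was not tested.

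Folr2, a folate receptor of tissue macrophages, was 8.96, 8.34 and 9.01 in the day 10 arrays, against 7.97, 7.66, 7.94, 8.98 and 9.43 in controls. The controls spanned more than the time course did, and the difference of 0.37 had a 95% interval from -0.19 to 0.94 (adjusted p = 0.329). The answer for Folr2 turned on which controls were used. Against controls 1 to 3 alone the difference at day 10 was 0.91 (adjusted p = 0.000233) and at day 28 it was 0.82 (adjusted p = 0.00297). Against controls 4 and 5 alone it was -0.44 at day 10 with no call, -0.85 at day 2 (adjusted p = 0.0089) and -1.08 at day 3 (adjusted p = 0.000575). Folr2 was 8.58, 8.19, 8.05 and 8.60 at day 2, 8.16, 8.04 and 8.17 at day 3, and 8.85, 8.50, 8.61 and 8.73 at day 28.

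**Figure D2:**
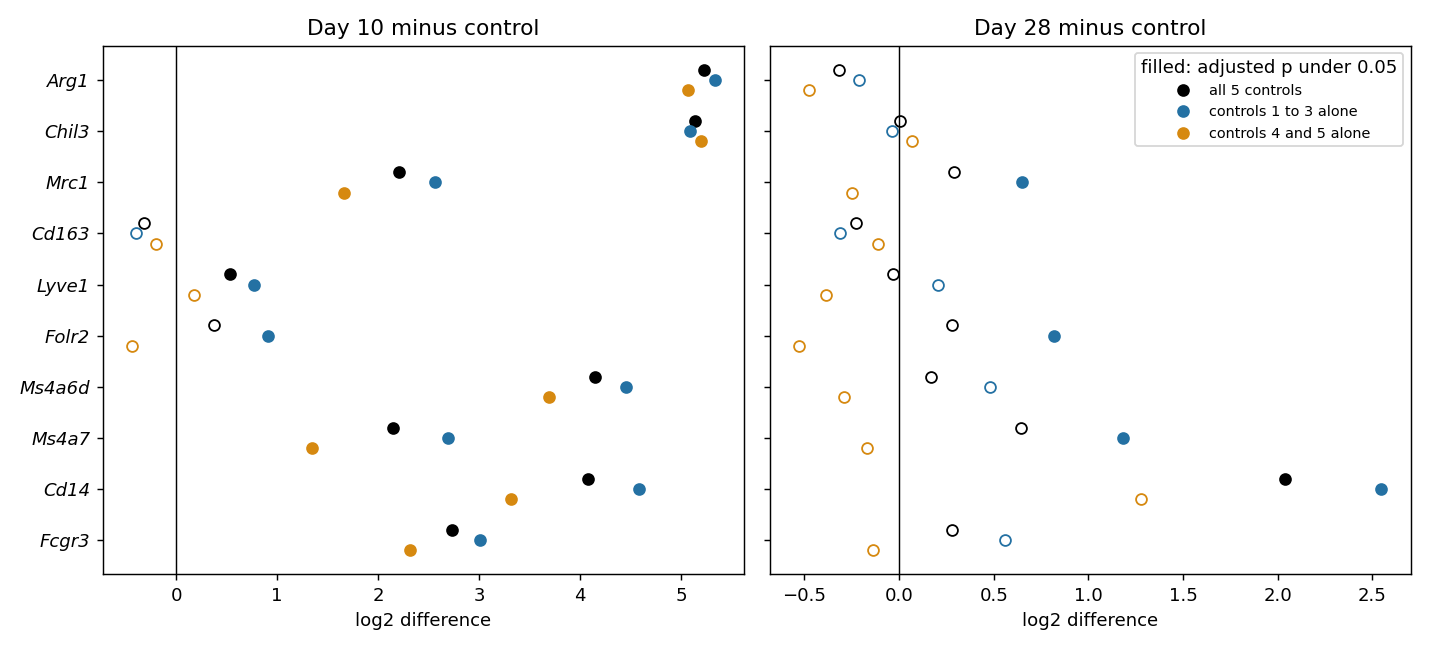
The log2 difference of each gene from controls at day 10 (left) and day 28 (right) is plotted with all 5 controls, with controls 1 to 3 alone and with controls 4 and 5 alone, filled where the adjusted p was under 0.05. The 7 genes called with every choice of controls at day 10 kept their direction, while Folr2 was 0.91 with controls 1 to 3 and -0.44 with controls 4 and 5.

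Ms4a6d, a membrane-spanning protein of the MS4A family found on macrophages, was 13.36, 12.66 and 12.34 in the day 10 arrays, against 8.58, 8.21, 8.19, 9.11 and 9.08 in controls, a difference of 4.15 ± 0.34 (SE; adjusted p = 1.68e-09). Its second probe gave 3.88 ± 0.34 (adjusted p = 3.79e-09), nearly the same size. At day 3 Ms4a6d was 8.83, 11.40 and 9.86, and 2 of the 3 arrays exceeded every control. The day 3 difference of 1.40 ± 0.34 had an adjusted p of 0.00303. It was 0.71 without replicate 2 (adjusted p = 0.0637) and 0.93 against controls 4 and 5 alone (adjusted p = 0.122), and the second probe did not pass (0.82, adjusted p = 0.0761). At day 2 it was 9.05, 8.76, 8.78 and 8.90, and at day 28 it was 8.63, 8.69, 8.83 and 9.07, both inside the control range. Ms4a6d has close relatives in its family, so its probes may share signal with them. The relatives Ms4a6c and Ms4a6b were 7.52 and 7.08 at day 10, and shared signal was not tested.

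Ms4a7, another member of that family, was 10.72, 9.98 and 9.76 in the day 10 arrays, against 7.80, 7.23, 7.36, 8.77 and 8.86 in controls. The difference was 2.15 ± 0.30 (SE; adjusted p = 2.65e-06), or 2.69 against controls 1 to 3 alone and 1.34 against controls 4 and 5 alone. Its 2 probes disagreed in size. The dimmer probe was 7.41 ± 0.29 at day 10 and 6.66 ± 0.31 in controls (SD, n = 3 and n = 5), a difference of 0.75 (adjusted p = 0.00142). The dimmer probe lost this call against controls 4 and 5 alone (adjusted p = 0.0633). Unlike Ms4a6d, Ms4a7 was not called at day 3, where it was 7.58, 8.24 and 8.18. At day 2 it was 7.95, 7.61, 7.57 and 7.38, and at day 28 it was 8.31, 8.54, 8.84 and 8.89. The day 2 difference did not pass with all controls (-0.37, adjusted p = 0.521) and was -1.18 against controls 4 and 5 alone (adjusted p = 0.00317). The day 28 difference of 0.64 did not pass with all controls (adjusted p = 0.241) and was 1.18 against controls 1 to 3 alone (adjusted p = 0.00116).

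**Figure D3:**
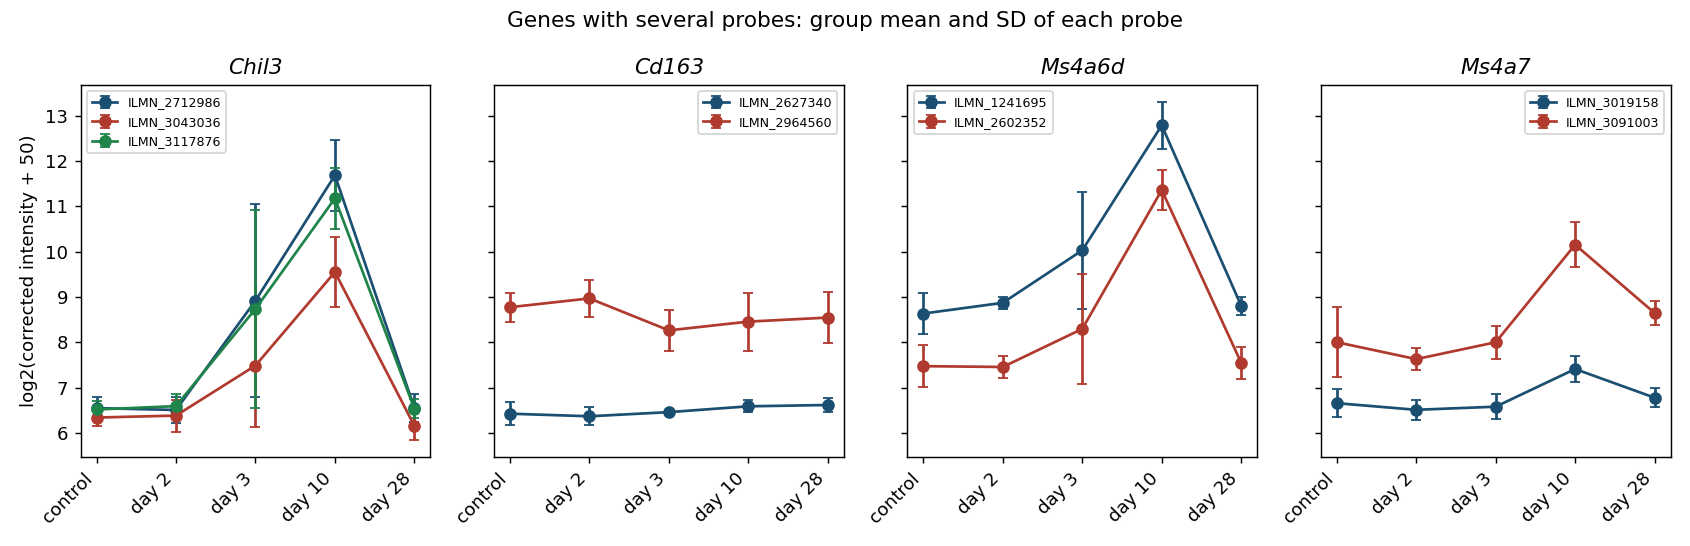
Group mean and SD of log2(corrected intensity + 50) are plotted for each probe of the 4 genes with several probes, in controls (n = 5) and at days 2 (n = 4), 3 (n = 3), 10 (n = 3) and 28 (n = 4). The probes of Chil3 and Ms4a6d peak together at day 10, the dimmer Ms4a7 probe rises by 0.75 against 2.15 for the brighter one, and neither Cd163 probe was called.

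Cd14, the co-receptor that hands bacterial lipopolysaccharide to Toll-like receptor 4, was 12.58, 12.78 and 11.59 in the day 10 arrays, against 7.98, 7.70, 7.51, 9.55 and 8.44 in controls. The difference was 4.08 ± 0.38 (SE; adjusted p = 9.26e-09). At day 28 Cd14 was 9.71, 9.67, 11.02 and 10.70, and all 4 arrays lay above every control. This was the single probe of the 15 called at day 28, where 1.11% of all probes tested were called higher, and groups did not overlap in this direction in 3.21%. The day 28 difference was 2.04 ± 0.35 (4.11-fold, adjusted p = 0.0021), 2.55 against controls 1 to 3 alone (adjusted p = 3.74e-05) and 1.28 against controls 4 and 5 alone (adjusted p = 0.401). The summed neutrophil markers of the day 28 arrays were 2464.59, 1465.7, 4080.57 and 4873.09, against 803.92 to 2415.53 in controls, and the 2 arrays with the highest sums were also those with the highest Cd14. Their part in the Cd14 value was not tested. At day 3 Cd14 was 8.42, 9.86 and 9.41, a difference of 1.00 from controls that narrowly missed the threshold (adjusted p = 0.0519) and passed in 7 of 28 alternatives. It passed against controls 1 to 3 alone (adjusted p = 0.00195) and was 0.24 against controls 4 and 5 alone (adjusted p = 0.754). At day 2 it was 8.01, 8.04, 8.20 and 8.17, close to the controls.

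Fcgr3, a low-affinity receptor for the Fc part of immunoglobulin G, was 11.18, 10.83 and 10.85 in the day 10 arrays, against 8.12, 7.87, 7.86, 8.54 and 8.74 in controls. Its replicates at day 10 were close, and the difference was 2.73 ± 0.22 (SE; adjusted p = 1.38e-09). Fcgr3 was 7.97, 8.02, 8.15 and 7.94 at day 2 and 8.65, 8.43, 8.50 and 8.45 at day 28, both within the control range. At day 3 it was 7.88, 9.27 and 8.28, where replicate 2 alone exceeded every control (difference 0.25, adjusted p = 0.46). Its extracellular sequence resembles that of Fcgr2b, so part of the probe's signal may come from that gene.

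**Figure D4:**
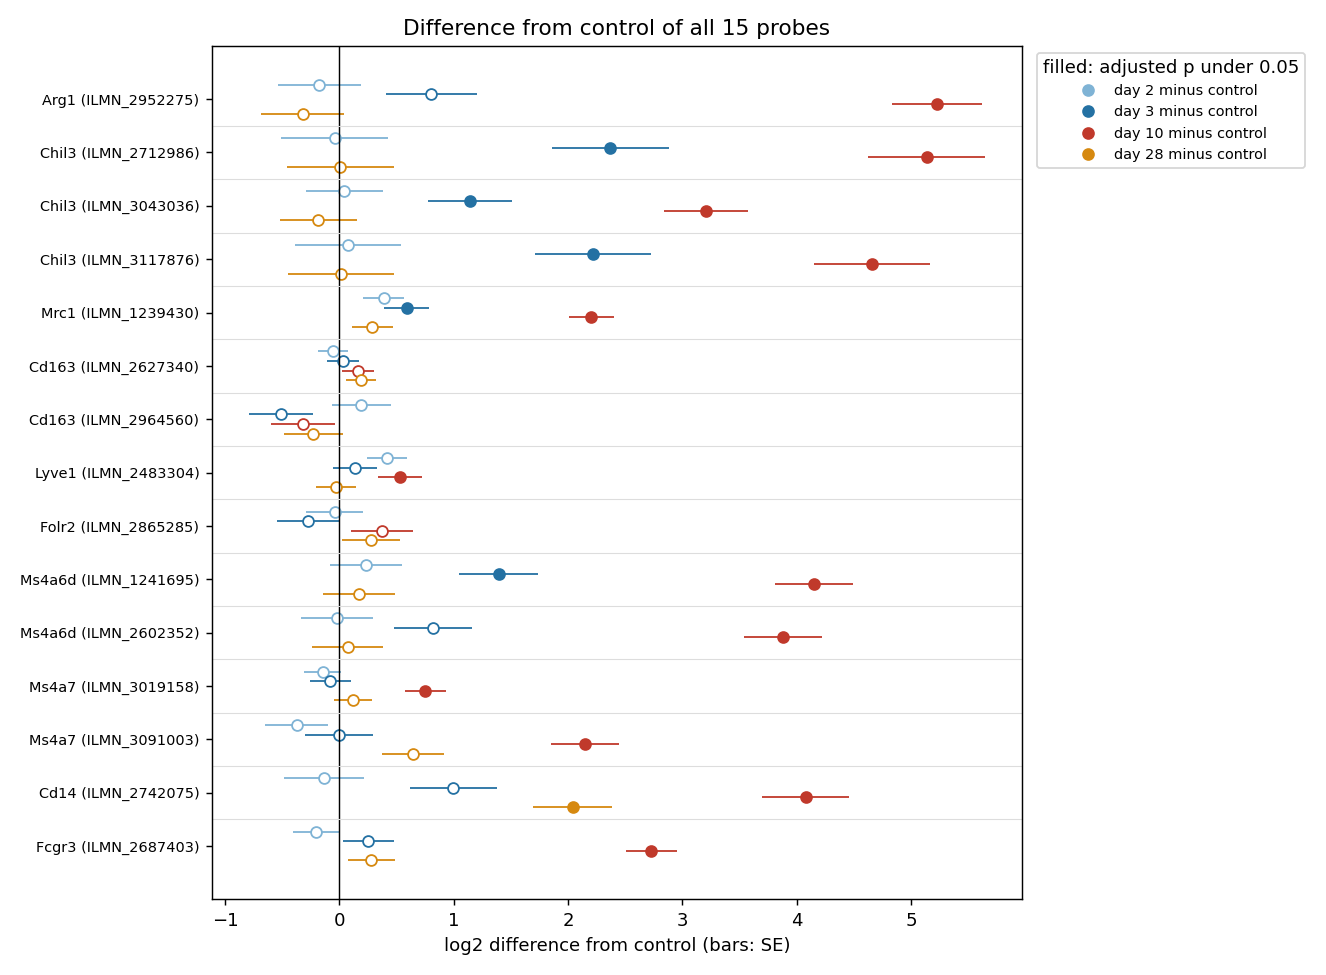
The log2 difference from controls (n = 5) of all 15 probes is plotted with its SE at day 2 (n = 4), day 3 (n = 3), day 10 (n = 3) and day 28 (n = 4), filled where the adjusted p was under 0.05. At day 10, 12 probes are filled and all lie to the right, at day 28 Cd14 alone is filled, and at day 2 none is.

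Across time, the rise came in steps that differed by gene. At day 2 limma called 0 of the 15 probes, where 6.64% of all probes were called, and 2 of the 15 (Mrc1 and Lyve1) had an unadjusted p under 0.05. At day 3, 5 of the 15 probes were called higher than controls and 0 lower, where 14.1% of all probes were called higher, and they were the 3 Chil3 probes, Mrc1 and the brighter Ms4a6d probe. In 3 probes, all of Chil3, the day 3 and control arrays did not overlap, as in 12.9% of all probes. Without day 3 replicate 2, the count of probes called fell to 2 of 15. Against controls 4 and 5 alone, 2 probes, both of Chil3, were called higher and 2 lower, namely Folr2 (-1.08) and Ms4a7 (-0.81, adjusted p = 0.0203). Against controls 1 to 3 alone, 7 were called higher and 0 lower.

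Against day 2, day 3 was higher in 5 of the 15 probes, where 8.74% of all probes were called higher. The brightest Chil3 probe was 2.41 ± 0.53 higher (adjusted p = 0.00212), the brighter Ms4a6d probe 1.16 ± 0.36 higher (adjusted p = 0.0253) and Cd14 1.13 ± 0.40 higher (adjusted p = 0.0485). Without replicate 2 the Chil3 difference was 1.24 (2.36-fold, against 5.32-fold with it) and stayed called. The Ms4a6d difference was then 0.48 (adjusted p = 0.329) and the Cd14 difference 0.82 (adjusted p = 0.261), and 2 probes were called. The Cd14 call was lost in 14 of 28 alternatives, among them leaving out any single day 2 array.

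From day 3 on, 11 of the 15 probes were called at day 10, all higher, where 31.4% of all probes were called in either direction. Arg1 stood 4.42 ± 0.44 above day 3 (adjusted p = 5.3e-08), Cd14 3.08 ± 0.42 (adjusted p = 4.68e-06) and Fcgr3 2.48 ± 0.25 (adjusted p = 5.89e-08). Chil3 stood 2.76 ± 0.57 above day 3 (adjusted p = 0.000492), with 1 day 10 array below the highest day 3 array. Without day 3 replicate 2 the Arg1 difference was 5.40 (42.3-fold, against 21.4-fold with it) and the Chil3 difference was 3.93 (15.3-fold, against 6.79-fold with it). The Ms4a6d difference was 2.76 with that array and 3.44 without it. The day 10 arrays lay above every day 3 array in 9 of the 15 probes, against 20.8% of all probes. This comparison and those with controls at day 10 share the day 10 arrays.

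By day 28 most of the rise was gone. Against day 10, 12 of the 15 probes were called, all lower, where 30.0% of all probes were called in either direction. Arg1 stood at -5.54 ± 0.41 against day 10 (adjusted p = 8.59e-10), Chil3 at -5.13 ± 0.53 (adjusted p = 8.49e-08) and Ms4a6d at -3.98 ± 0.36 (adjusted p = 1.26e-08). Set against the day 10 rise over controls on the log2 scale, 95.9% was lost for Ms4a6d, 89.7% for Fcgr3, 86.9% for Mrc1 and 70.1% for Ms4a7, and Cd14 lost 2.04 of 4.08. These shares use all 5 controls and change with the controls chosen, and both sides of each share use the day 10 arrays. Ms4a7 stood at -1.51 against day 10. Its day 10 rise was 2.69 against controls 1 to 3 alone and 1.34 against controls 4 and 5 alone. Mrc1 stood at -1.91 against day 10, and its rise was 2.56 and 1.66 with those controls. For Arg1 and Chil3 the day 28 and control levels were both dim, so no share is given. Their day 28 differences from day 10 moved with the background treatment, between -6.75 and -4.40 for Arg1 and between -5.78 and -4.29 for Chil3. For 11 of the 15 probes every day 28 array lay below every day 10 array, as in 18.9% of all probes. Cd163 and Folr2 were not called in this comparison, at 0.09 (95% interval -0.52 to 0.69) and -0.09 (95% interval -0.68 to 0.50).

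The order of the 5 group means shows the same uneven course. Day 10 came first for Arg1, Chil3, Mrc1, Lyve1, Folr2, Ms4a6d, Ms4a7, Cd14 and Fcgr3, and day 2 came first for Cd163. Day 10 was clear of the group that followed it for Arg1, Mrc1, Ms4a6d, Ms4a7, Cd14 and Fcgr3. For Chil3 it overlapped day 3, for Lyve1 day 2 and for Folr2 day 28. The group after day 10 was day 3 for Arg1, Chil3, Mrc1 and Ms4a6d, and day 28 for Ms4a7, Cd14 and Fcgr3. All neighbouring groups overlapped for Cd163 and Folr2.

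Likeness between courses was measured as the root mean square difference of the 5 group means, each gene centred on its own mean. A smaller value means closer group means, and genes that moved little score as close whatever their order. Among the members, Lyve1 and Folr2 (0.28) and Ms4a7 and Fcgr3 (0.31) were closest, and Arg1 and Cd163 were farthest apart (2.21). The group means of Lyve1 and Folr2 spanned only 0.56 and 0.64, and their order differed after day 10. Those of Ms4a7 and Fcgr3 spanned 2.52 and 2.93. Over 12651 genes, the closest to Arg1 were Sirpb1a (0.57) and Chil3 (0.61), and the closest to Chil3 were Lox (0.52) and Lgals3 (0.53). Lox (0.14) and Sirpb1a (0.24) were closest to Ms4a6d, Rgs1 and Nfkbid (both 0.12) to Ms4a7, and Mcm6 and Nckap1l (both 0.11) to Mrc1. Osm (0.26) and S100a8 (0.30) were closest to Cd14, and H2ac15 (0.04) and H2ac22 (0.06) to Fcgr3. For the members whose group means differed little the closest genes were Nrde2 and Ppox (both 0.03) for Cd163, Pcgf6 and Clock (both 0.04) for Lyve1, and Commd3 and Yipf1 (both 0.03) for Folr2. All group means share the same 19 arrays.

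Gene lists around the members were read at day 10 against controls with the members themselves left out, and with 35.8% of all probes called in either direction as the background. Of 19 further alternative activation genes tested, 7 rose and 3 fell, with a median difference of 0.11. Trem2, a lipid receptor of macrophages (2.68), Igf1, a growth factor (1.62), and the transcription factor Egr2 (3.37) rose. The 3 that fell, named after their values were seen, were Retnla (-1.46), a secreted protein that with Arg1 and Chil3 is a classical mark of alternative activation, Klf4 (-0.83) and Cd36 (-0.77). Of 8 genes of interleukin 4 and interleukin 13 signalling tested, 1 rose, the receptor chain Il13ra1 (0.63), and 1 fell, the kinase Jak1 (-0.64), at a median of -0.03. The list held 12 genes. Il4ra and Il2rg were not found on the array, and Il4 and Il13ra2 did not pass the filter, so these were not tested. Of 19 classical activation genes, 11 rose and 1 fell (median 0.70), with the cytokines Il1b (5.74) and Tnf (3.71) and the signalling inhibitor Socs3 (3.61) in front.

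Of 19 further genes of resident heart macrophages, 9 rose and 4 fell, with a median of 0.13. F13a1, a clotting factor subunit, rose by 1.92, Pf4, a chemokine, by 2.21 and Clec4n, a lectin receptor, by 2.66. The 4 that fell, named after their values were seen, were Timd4 (-0.40), Gas6 (-0.64), Selenop (-0.65) and Fcgrt (-0.67).

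The partners of single members were read in the same way. Of 13 arginine and polyamine genes, 5 rose and 1 fell (median 0.22), among them Odc1 (1.30), which turns ornithine into putrescine, Srm (1.76) and Sat1 (1.55). Of 6 other MS4A genes tested, 3 rose and 0 fell (median 0.50), namely Ms4a8a (1.28), Ms4a6c (0.83) and Ms4a6b (0.79). Of 9 genes of immunoglobulin G Fc receptors, 5 rose and 1 fell (median 1.27), with the receptors Fcgr4 (3.29), Fcgr2b (2.98) and Fcgr1 (2.29). Of 14 genes working with Cd14 and the Toll-like receptors, 10 rose and 2 fell (median 0.92), with Ly86 (3.07), the adaptor Myd88 (1.62) and Tlr4 itself (1.33). Of 10 genes of haemoglobin and haem handling, which are the field of Cd163, 5 rose and 1 fell (median 0.42), with Hmox1, the enzyme that opens haem (2.50), Hp, the haptoglobin gene (1.20), and Slc11a1 (1.36) rising. Of 6 colony-stimulating factor genes, the receptor chains Csf2ra (1.34) and Csf3r (1.83) rose and 0 fell (median 0.17). Csf3r is also counted among the neutrophil markers below. The share called was 33.3% for the colony-stimulating factor genes and 46.2% for the arginine and polyamine genes. Both lie near the 35.8% called over all probes tested.

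**Figure D5:**
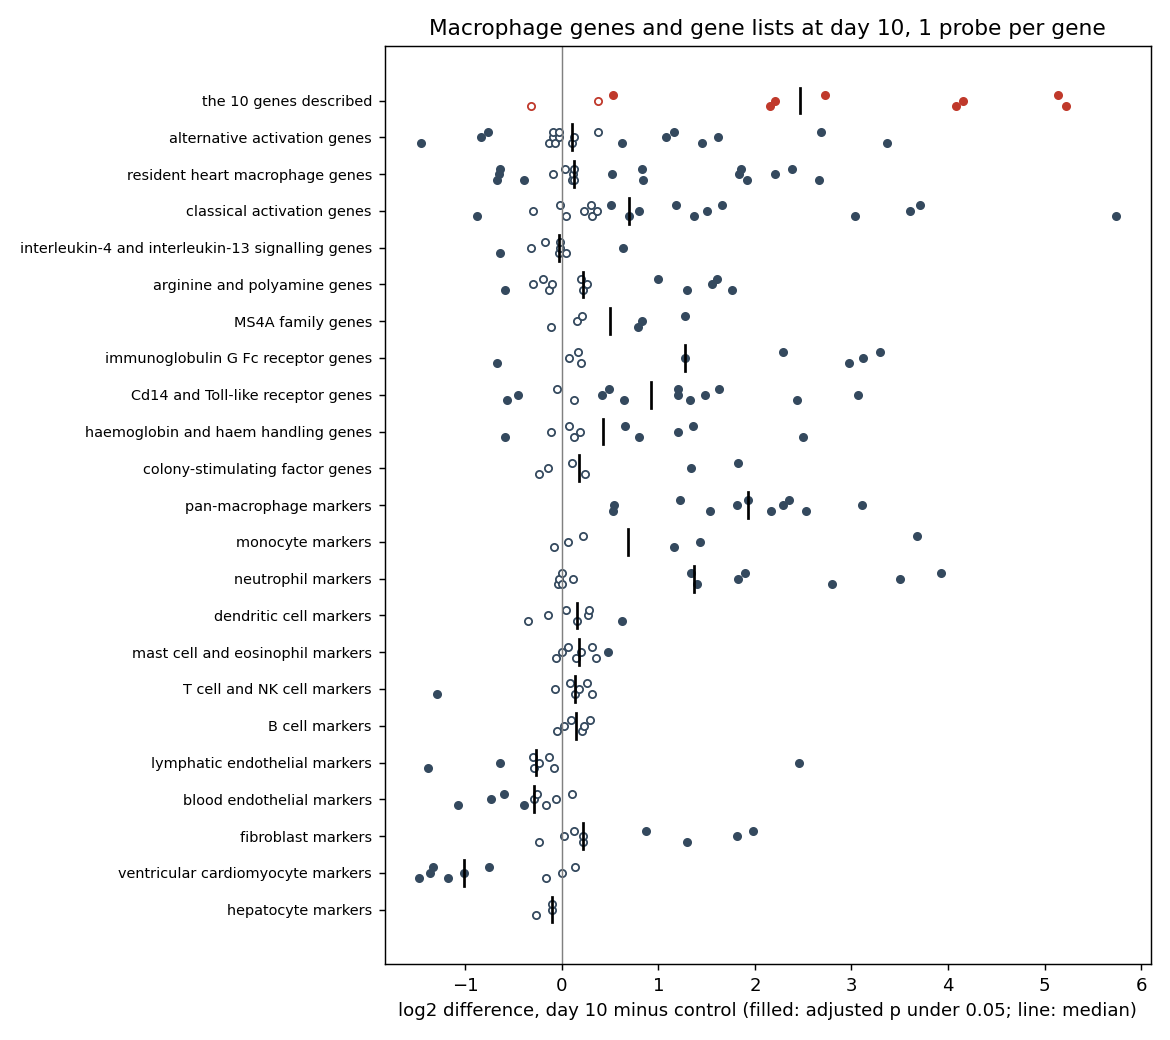
The log2 difference of day 10 from controls is plotted for the 10 genes described (top) and for each gene list (1 point per gene, filled where the adjusted p was under 0.05, with a line at the median). All 11 pan-macrophage markers and 7 of 12 neutrophil markers lie to the right and are filled, while the alternative activation genes spread from -1.46 to 3.37 around a median of 0.11.

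Markers of other cells moved at day 10 as well. All 11 pan-macrophage markers tested rose (median 1.93), and their summed corrected intensity was 37069.7 to 59281.9 at day 10, against 4897.73 to 14687.9 in controls. Of 12 neutrophil markers 7 rose and 0 fell (median 1.37), including Lcn2 (3.93), Cxcr2 (1.40) and Csf3r (1.83), and the sum was 8896.16 to 15203 at day 10, against 803.92 to 2415.53 in controls. The 5 not called, named after their values were seen, were Mmp8, Camp, Ltf, Ngp and Elane, with means of 6.44 to 6.73 at day 10 and 6.43 to 6.73 in controls. Of 6 monocyte markers 3 rose and 0 fell (median 0.69), namely Plac8 (3.68), Ifitm6 (1.43) and Chil1 (1.16), with a sum of 6966.08 to 10987.5 at day 10 and 5014.03 to 8349.96 in controls. The part of these cells in the members' rise was not tested.

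Markers of other cell types moved less or the other way. Of all probes tested, 35.8% were called in either direction. The share called was near that for blood endothelial and fibroblast markers (44.4% each) and lymphatic endothelial markers (37.5%). The lists hold the brightest probe of each gene, while the background counts every probe. Of 9 ventricular cardiomyocyte markers 6 fell and 0 rose (median -1.01), with the sarcomere genes Tnni3 (-1.48) and Myh6 (-1.37) among them. Of 9 blood endothelial markers 4 fell and 0 rose (median -0.29), with the receptors Tie1 (-1.08) and Tek (-0.60) and the cadherin Cdh5 (-0.74). Of 9 fibroblast markers 4 rose and 0 fell (median 0.22), with the collagens Col1a1 (1.97), Col1a2 (1.29) and Col3a1 (1.82). Of 8 lymphatic endothelial markers 1 rose and 2 fell (median -0.26). Pdpn, the riser, can also be carried by fibroblasts and macrophages, and Prox1, which fell, is the transcription factor that sets lymphatic identity. Of 7 dendritic cell markers Cd209a alone rose (0.63, list median 0.16), of 8 mast cell and eosinophil markers Cpa3 alone rose (0.47, list median 0.17), and of 7 T cell and NK cell markers Prf1 alone fell (-1.30, list median 0.14). limma called 0 of 6 B cell markers (median 0.15) and 0 of 3 hepatocyte markers (median -0.11), and 0 of either had an unadjusted p under 0.05.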

How the data were processed

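The values used are the deposited linear intensity of each probe on 19 Illumina bead arrays of left ventricular RNA (TRIzol extraction, biotinylated cRNA, per the labels' protocols). The authors' intensity values were already quantile-normalized: once sorted, all 19 columns held the same values, with a median of 191.479. The program and its background treatment are not given in the sources used here. Another 38 columns carry codes that match no sample label and were not used, so no detection calls entered and dim probes are described by their percentile.

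Intensities were corrected with limma's normexp (offset 50) and put on the log2 scale, and probes at or below the 25th percentile of mean intensity (162.92) were removed, which left 19272. limma 3.58.1 under R 4.3.3 (lmFit, eBayes) fitted 1 mean per group to all 19 arrays, and 2-sided p-values were adjusted by Benjamini-Hochberg over all 19272 probes in each of 7 comparisons. No slide or scan batch was known for these columns. The number of arrays limits the precision. The script was tested on simulated data.

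All probes of the 10 genes are described, with the brightest probe first, and of each list at most the 3 called genes with the smallest adjusted p at day 10, apart from those said to be named after their values were seen. Symbols came from the platform annotation (23978 probes with 1 symbol, 1719 with none), and promoters from RefSeq GRCm38.p6. The members, the 22 lists and the alternatives were chosen with earlier results of these data known. Each result was recomputed under 28 alternatives: other background corrections, no filter, fewer groups, a replicate block, other variance models, array weights, parts of the controls, and each array left out.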

Additional observations from a re-analysis of the deposited data

Results flagged for a closer look

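Of 45 groups of 4 or 5 arrays over the 15 probes, 3 held an array whose gap to its nearest neighbour exceeded Dixon's 95% critical value, and chance alone gives about 1 in 20 such groups. Arg1 was 6.66 in control replicate 4, against 6.05 to 6.18 in the other controls. A dimmer Chil3 probe (ILMN_3043036) was 6.62 in day 28 replicate 2, against 5.97 to 6.04 in the other day 28 arrays. Another Chil3 probe (ILMN_3117876) was 6.22 in day 28 replicate 3, against 6.62 to 6.65 in the other day 28 arrays. All these values lie below the median of the array (6.83).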

How the results depend on the processing

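No called value reversed. Of 2940 values of the 15 probes under alternatives, 71 lost their call, 43 gained one and 102 changed sign without a call in either setting. The count of probes called at day 2 (0) was 1 with the replicate block, 1 with array weights, 2 (both higher) with controls 1 to 3 alone and 2 (both lower) with controls 4 and 5 alone, and 0 to 1 with an array left out. At day 28 (1) it was 2 with array weights, 4 with controls 1 to 3 alone, 0 with controls 4 and 5 alone, and 1 in every fit with an array left out. At day 3 against control (5) it was 3 with only the groups compared and 2 to 7 with an array left out, lowest without day 3 replicate 2. For day 3 against day 2 (5) it was 3 with no background correction, 2 with only the groups compared, 2 with trended, robust variances, and 2 to 8 with an array left out, lowest without day 2 replicate 2 or day 3 replicate 2. At day 10 against control (12) leaving out an array gave 11 to 13, for day 10 against day 3 (11) 11 to 12, and for day 28 against day 10 (12) 11 to 12. Over the whole table, probes called at day 2 (1279) were 731 with controls 1 to 3 alone and 814 to 1429 with an array left out. At day 28 (347) they were 222 with an offset of 16, 816 with the replicate block, 1583 with array weights, 1874 with controls 1 to 3 alone, 39 with controls 4 and 5 alone, and 105 to 772 with an array left out. For day 3 against day 2 (3612) they were 5669 with array weights and 2241 to 3924 with an array left out. The causes were not tested. The arrays share only a number: arrays of the same number had deviations that correlated at -0.16 to 0.13 (33 pairs), against -0.19 to 0.20 for other pairs (110). Differences among dim probes, such as Arg1 and Chil3 in controls, are limited by the array's background.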

Other observations

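Cd14 was not the single inflammatory gene still high at day 28. Of 19 classical activation genes tested, limma called 5 higher than controls and 0 lower (median 0.33), where 1.11% of all probes were called higher. They were the cytokines Il1b (3.14 ± 0.46 SE, adjusted p = 0.000343) and Tnf (1.75 ± 0.27, adjusted p = 0.000574), the chemokine Ccl5 (1.00 ± 0.15, adjusted p = 0.000367), the transcription factor Irf1 (1.04 ± 0.19, adjusted p = 0.00384) and Socs3 (1.19 ± 0.30, adjusted p = 0.0383). Of 14 genes working with Cd14, Tlr2 was called (1.22 ± 0.28, adjusted p = 0.0235). Among 19 alternative activation genes Egr2 (3.70 ± 0.41, adjusted p = 8e-06) and Klf4 (0.79 ± 0.18, adjusted p = 0.0267) were called higher, both transcription factors, while Trem2, 2.68 above controls at day 10, was 0.05 above them at day 28 (adjusted p = 0.94).

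Cell markers at day 28 gave other counts. limma called 0 of 11 pan-macrophage markers (0 with an unadjusted p under 0.05) and 0 of 12 neutrophil markers (4 with an unadjusted p under 0.05). The summed neutrophil markers lay above every control in 3 of the 4 day 28 arrays (1465.7 to 4873.09 at day 28, against 803.92 to 2415.53 in controls). The genes in these paragraphs were named after their values were seen, and they were fitted against all 5 controls only, although the Cd14 call at day 28 was lost against controls 4 and 5 alone (1.28, adjusted p = 0.401).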
